A study of Caenorhabditis elegans with 2 samples.

Results

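The 259 regions described here are autosomal ChIP-seq calls of the nematode protein ROW-1 that lay inside introns and away from annotated promoters. They were taken from the authors' pooled call list on the assembly ce11 (WBcel235) by 3 criteria: a signal of at least 50, a summit in an intron of a protein-coding gene and in no exon, and a summit outside the promoter window of every annotated 5' end of any gene type. A promoter window covered the 500 bp before a 5' end and the 200 bp after it. The pooled list held 30000 calls, of which 2780 reached a signal of 50 and 2759 of these were nuclear. Of the nuclear calls, 1424 lay in autosomal promoter windows, 380 were autosomal and intergenic, 95 fell in autosomal exons and 57 were intronic on X. The 259 calls were chosen by their pooled signal and position, so both are given as a description with no test.

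The calls came from animals of strain OP510, whose labelled genotype joins the mutation unc-119(tm4063) on chromosome III with the transgene wgIs510. The transgene expresses row-1 (F37D6.2) fused at its C terminus to GFP and FLAG, and both biological replicates carried it. Whole hermaphrodites at stage L4 were used 48 h after L1 larvae had been synchronized by starvation, chromatin was sheared by sonication, and the fusion protein was pulled down through its GFP. The series therefore held 1 group of 2 replicates and no contrast of conditions. The promoter that drives the transgene is not given in the labels. Whole animals mix all tissues, so a call does not tell in which cells it arose. Neither a control library nor another tagged strain was used here, so sites that give signal with any GFP-tagged protein cannot be told apart from sites of ROW-1. The lists carry signals but no read counts, the depth is unknown, and shares are given with exact Clopper-Pearson intervals (95%) that cover counting error only.

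ROW-1 has C2H2 zinc fingers, small folds that hold a zinc ion and often read DNA bases in the major groove. Proteins of this type can sit at promoters, next to the start of a transcript, or at enhancers, which act over a distance and in C. elegans often lie in introns or upstream of genes. Long introns of nematode genes also commonly hold internal promoters, from which shorter transcripts of the same gene start. ChIP-seq finds where DNA is recovered with a protein and does not tell enhancers from internal promoters.

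Sequences of 101 bp centred on the summit of 7 of the strongest calls are shown, 6 that carry a short run that recurred at these summits and 1 that carries none. They were picked after the matches were seen and overstate how often these runs occur: of the 25 strongest calls, 14 held the hexamer described next, 9 the 8-base element and 8 neither. They are from the RefSeq sequence of WBcel235 and are all written 5' to 3' on the plus strand. Capitals mark the hexamer GAGAGA or the 8-base element AGACGCAG on either strand, read as TCTCTC and CTGCGTCT when they lie on the minus strand. The call in intron 4 of Y111B2A.12 (chrIII:12612602-12612702, gene on the plus strand) held CTGCGTCT:
Y111B2A.12: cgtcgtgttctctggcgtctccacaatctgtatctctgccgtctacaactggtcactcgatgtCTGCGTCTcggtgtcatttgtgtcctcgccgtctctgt
The call in intron 1 of mdt-26 (chrII:5661886-5661986, plus strand), a gene of the Mediator complex by name, held the same element in the same orientation to its gene:
mdt-26: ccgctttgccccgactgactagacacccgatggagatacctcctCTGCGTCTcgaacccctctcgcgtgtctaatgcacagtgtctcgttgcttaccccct
The downstream call in intron 10 of zfp-1 (chrIII:8802057-8802157, plus strand) did so as well:
zfp-1 intron 10: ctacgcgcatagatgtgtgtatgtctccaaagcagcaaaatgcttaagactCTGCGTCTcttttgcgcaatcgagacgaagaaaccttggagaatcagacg
In intron 1 of daf-5 (chrII:14040459-14040559, minus strand) the element stood on the plus strand, again opposite to the gene, beside a TC run:
daf-5: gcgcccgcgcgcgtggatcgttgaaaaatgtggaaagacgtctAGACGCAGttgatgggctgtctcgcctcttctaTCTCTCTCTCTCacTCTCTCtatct
The call in intron 5 of larp-1 (chrIII:5014088-5014188, minus strand) likewise held both:
larp-1: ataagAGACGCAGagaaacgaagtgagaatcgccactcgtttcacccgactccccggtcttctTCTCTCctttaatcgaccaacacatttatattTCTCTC
The strongest call of pqn-41 (chrIII:1921334-1921434, plus strand) held GAGAGA alone:
pqn-41: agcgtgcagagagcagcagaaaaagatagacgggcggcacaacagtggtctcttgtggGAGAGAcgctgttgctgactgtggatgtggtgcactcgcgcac
The call in intron 5 of zfp-1 (chrIII:8795795-8795895) held neither:
zfp-1 intron 5: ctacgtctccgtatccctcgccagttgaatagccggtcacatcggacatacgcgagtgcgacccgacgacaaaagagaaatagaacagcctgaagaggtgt

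The signals of the 259 calls ran from 50.01 to 445 with a median of 71.0 (quartiles 58.5 and 99.0). For comparison, the median was 85.3 over the promoter calls, 78.1 over the intergenic calls and 72.6 over the intronic calls on X, among which the highest reached 1620. Nearly all of the 259 were also found in each replicate: 258 overlapped a call in both, as did 2742 of all 2759 nuclear calls at or above 50. The replicate lists were long, with 28339 calls in replicate 1 and 25405 in replicate 2, so this overlap does not set the 259 apart. Taking in each replicate the overlapping call with the nearest summit, signals ran from 15.5 to 271 with a median of 43.6 in replicate 1, and from 8.36 to 187 with a median of 31.8 in replicate 2. The signal was higher in replicate 1 for 220 of the 258, with a median ratio of 1.41 (quartiles 1.12 and 1.83). The same median ratio over all nuclear calls was 1.42, so this offset was shared by the whole list, and the signals of the lists have no known common scale.

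**Figure D1:**
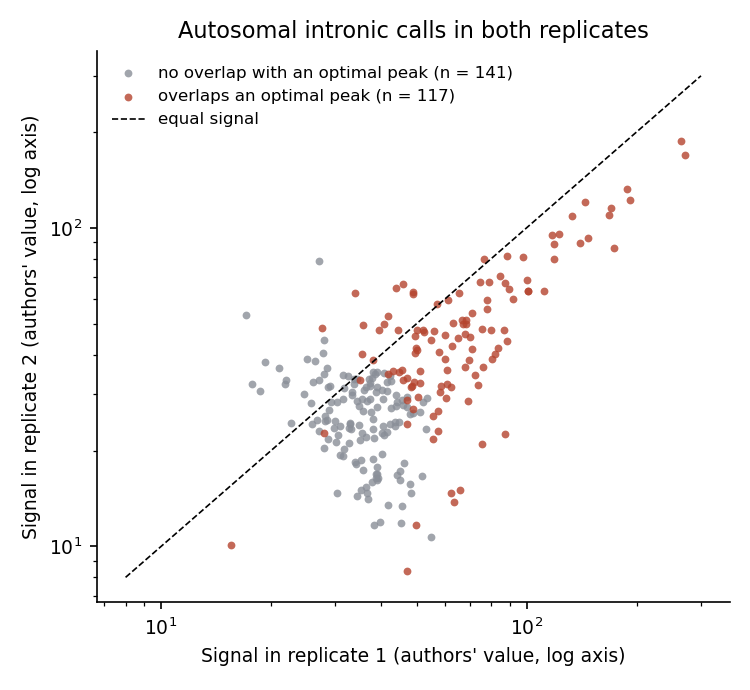
Signal of 258 autosomal intronic calls in replicate 1 (x) and replicate 2 (y), both as log axes of the authors' values; red points overlap an optimal peak and grey points do not. Most points lie below the dashed line of equal signal, 220 of 258, and the calls with the highest values are high in both replicates.

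Most of the calls stood among the strongest of both replicates, and fewer overlapped the final list. Of the 259, 170 (65.6%, interval 59.5 to 71.4) overlapped one of the 2759 strongest nuclear calls of each replicate, beside 71.3% of all nuclear calls at or above 50, a value inside that interval. An optimal peak, the authors' final call after their reproducibility step, was overlapped by 117 (45.2%, interval 39.0 to 51.5), beside 58.5% of all nuclear calls. The optimal list was identical to the 1574 pooled calls with the highest signal, the lowest of them at 74.8, so this share restates how many of the 259 were strong or next to a strong call. The replicates entered the pooled signal too, so neither share is independent of the rule. The authors' −log10 q-value did not separate the calls, since 236 stood at its maximum of 3.02 and the lowest at 2.69.

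At the edge of the threshold the calls differed little. The weakest 3 inside it lay in mtm-6 (50.08), hgo-1 (50.02) and kin-1 (50.01), and the strongest 3 intronic calls outside it lay in W09B6.4 (49.9), unc-73 (49.7) and unc-76 (49.7). The pooled list held 6394 autosomal intronic calls outside promoter windows at any signal. Of these, 452 reached 40, 184 reached 60, 111 reached 75, 64 reached 100 and 14 reached 200. The threshold thus cut through a continuous range of signals.

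The strongest 25 calls fell in 20 genes, and 14 of the 25 lay on chromosome III. All 25 overlapped an optimal peak. The call at the top lay in intron 4 of Y111B2A.12, with a pooled signal of 445, 264 in replicate 1 and 187 in replicate 2. Second was a call in intron 1 of F28F8.7 on chromosome V, with 438 pooled, 271 in replicate 1 and 169 in replicate 2. Its summit was 237 bp from the gene's 5' end, just past the edge of the promoter window. Next came a call in pqn-41, which had 314 pooled, 188 in replicate 1 and 133 in replicate 2. These 3 calls were high in both replicates.

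Several of the next calls lay in genes of transcription and chromatin. zfp-1 encodes a PHD-finger protein related to mammalian AF10, and its intron 5 call had 311 pooled, 192 in replicate 1 and 123 in replicate 2. mdt-26 had 278 pooled, with 168 and 110 in the replicates. The MADS-box factor gene mef-2, on chromosome I, had 240 pooled, with 133 in replicate 1 and 109 in replicate 2. let-526, which encodes an ARID-domain subunit of a SWI/SNF chromatin remodeller, had 228 pooled, with 140 and 89.9 in the replicates. Each of these was higher in replicate 1.

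Other strong calls lay in genes of signalling, trafficking and metabolism. daf-5 and daf-14 encode a Ski/Sno-family protein and a Smad-like protein of the TGF-beta pathway that controls dauer entry. The daf-5 call had 279 pooled, 170 in replicate 1 and 115 in replicate 2. The daf-14 call had 175 pooled, 112 in replicate 1 and 63.4 in replicate 2. The Rab2 gene unc-108 had 205 pooled (118.7 and 88.9), and the mevalonate kinase gene mvk-1 had 177 pooled (97.7 and 81.0). The RNA-binding La-related gene larp-1 had 214 pooled (117 and 95.2), and spop-1, for an adaptor of cullin ubiquitin ligases, had 157 pooled (89.5 and 64.3). All of them were again higher in replicate 1.

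The rest of the strongest 25 showed the same order with 1 exception. gei-4 had 264 pooled (145 in replicate 1 and 120 in replicate 2), cone-1 174 (88.3 and 81.7), K11D2.4 166 (100.4 and 68.6), Y43F8B.2 156 (84.3 and 70.5) and miz-1 155 (101 and 63.5). Y56A3A.7 was the exception, with 157 pooled, 76.4 in replicate 1 and 80.0 in replicate 2. The T28F4.1 call had 180 pooled, with 87.2 in replicate 1 and 22.5 in replicate 2 at the nearest summit, the widest ratio among the 25. The strongest calls that overlapped it had 277 and 194. Their summits were not the nearest to its own, so these values do not measure its summit. Of the 25, 24 were higher in replicate 1.

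The calls were spread over many genes, with a few that held a series of them. The 259 formed 248 separate regions, 11 of which held 2 overlapping calls. They fell in 194 host genes, or 199 when both genes are counted for the 5 summits that lay in introns of 2 overlapping genes. Of the 194 hosts, 149 had 1 call, 31 had 2 and 14 had at least 3. Another call of the set lay within 5000 bp for 99 of the 259 (38.2%). The 199 hosts were 1.27% of the 15656 autosomal protein-coding genes that have any intronic sequence outside promoter windows.

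At least 3 separate regions lay in each of 10 genes, which held 36 calls, and 6 of the 10 were on chromosome III. pqn-41, which encodes a glutamine- and asparagine-rich protein needed for the death of the linker cell, had 5 calls in 4 regions within a single intron of 7770 bp. Along the gene their pooled signals were 314, 73.4, 215, 235 and 161. In replicate 1 they were 188, 43.0, 123, 147 and 101, and in replicate 2 133, 35.5, 95.6, 92.9 and 63.5. The second call was the lowest in both replicates, and the other 4 were all above 60 in each. The intron lay between an internal 5' end 13613 bp into the gene and the next ones at 21713 and 21717 bp, and the summits stood 15426 to 20662 bp from the first 5' end. A call of 50.8 lay in the promoter window of the internal 5' end at 13613 bp.

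zfp-1 had 5 calls in 3 regions of introns 5 and 10. Their pooled signals along the gene were 311, 80.7, 261, 97.97 and 198. Replicate 1 gave 192, 49.8, 174, 45.7 and 118.7, and replicate 2 gave 123, 11.7, 86.3, 35.7 and 80.1. The 3 calls that were highest in the pooled list were the highest in each replicate. A further call of 187 in intron 5 was not in the set, since it lay in the promoter window of a noncoding gene, F54F2.13. In daf-5, 3 calls lay in its intron 1 of 14446 bp, with pooled signals of 113, 65.5 and 279 along the gene, and 1 of 74.4 lay in intron 2. In ncl-1, which encodes a TRIM-NHL protein that limits nucleolar size, the 4 calls had 101, 71.0, 82.7 and 112. The call with 82.7 had 47.2 in replicate 1, and in replicate 2 it had 8.36 at the nearest summit and 34.2 at the strongest overlapping call.

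**Figure D2:**
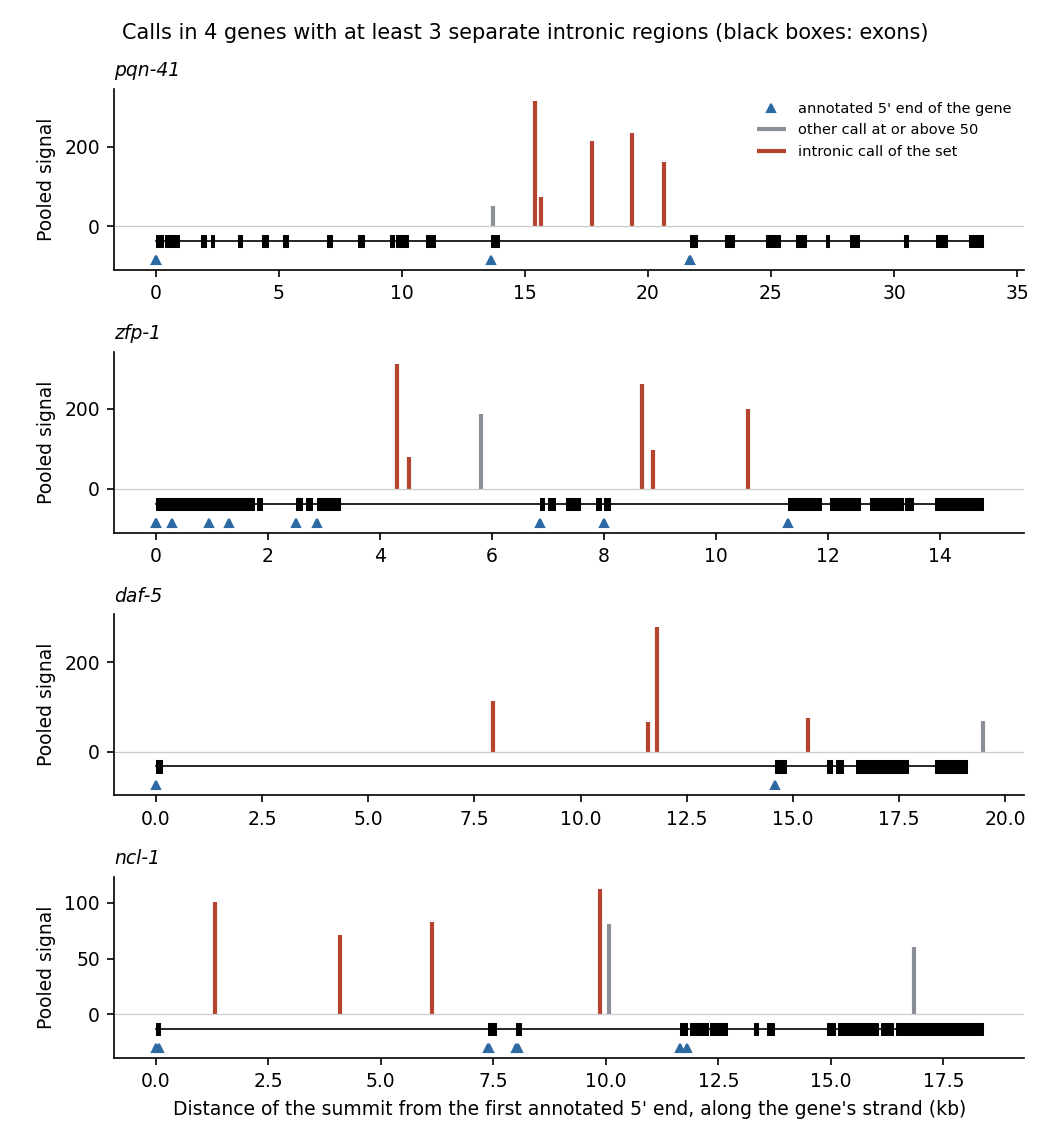
Pooled signal (y, the authors' value) of calls at or above 50 against the distance of their summits from the first 5' end of pqn-41, zfp-1, daf-5 and ncl-1 (x, in kb along the gene's strand); red bars are the intronic calls described, grey bars other calls, black boxes exons and triangles annotated 5' ends. The 5 calls of pqn-41 lie in 1 intron between 2 annotated starts, and those of zfp-1 and daf-5 also stand ahead of internal 5' ends, apart from the daf-5 call in intron 2.

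The other 6 hosts had weaker calls, at most 103. They were aakg-1, for a regulatory subunit of AMP-activated kinase (highest pooled signal 103), lit-1, for the Nemo-like kinase of Wnt signalling (94.2), C17E4.6 (93.5), tlk-1, for the Tousled-like kinase (82.7), vhp-1, for a MAP kinase phosphatase (74.8), and sue-1 (69.9). A call in an own promoter window stood at 4 of the 10 hosts, pqn-41, C17E4.6 (122), vhp-1 (89.5) and sue-1 (84.3). Of the 36 calls, 29 were in the first intron of a transcript and 29 lay upstream of a further 5' end of the host.

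The calls were concentrated in long introns. The host intron had a median length of 3572 bp (quartiles 1737 and 6226.5, range 43 to 18116), where an intron is a gap between the merged exons of all transcripts of the gene. Over the 22.4 Mb of autosomal intronic sequence outside promoter windows, the median base lay in an intron of 915 bp. Introns over 5000 bp held 34.7% of the calls (90 of 259, interval 29.0 to 40.9) and 9.95% of that sequence. Per Mb of it, the calls numbered 2.08 in introns up to 200 bp, 3.19 from 200 to 500 bp, 3.96 from 500 to 1000 bp and 7.77 from 1000 to 2000 bp. The density was 26.3 from 2000 to 5000 bp (Poisson 95% interval 21.3 to 32.2) and 40.4 over 5000 bp (32.5 to 49.7). It was thus higher in each longer class, although length was not separated here from the other features of long introns.

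**Figure D3:**
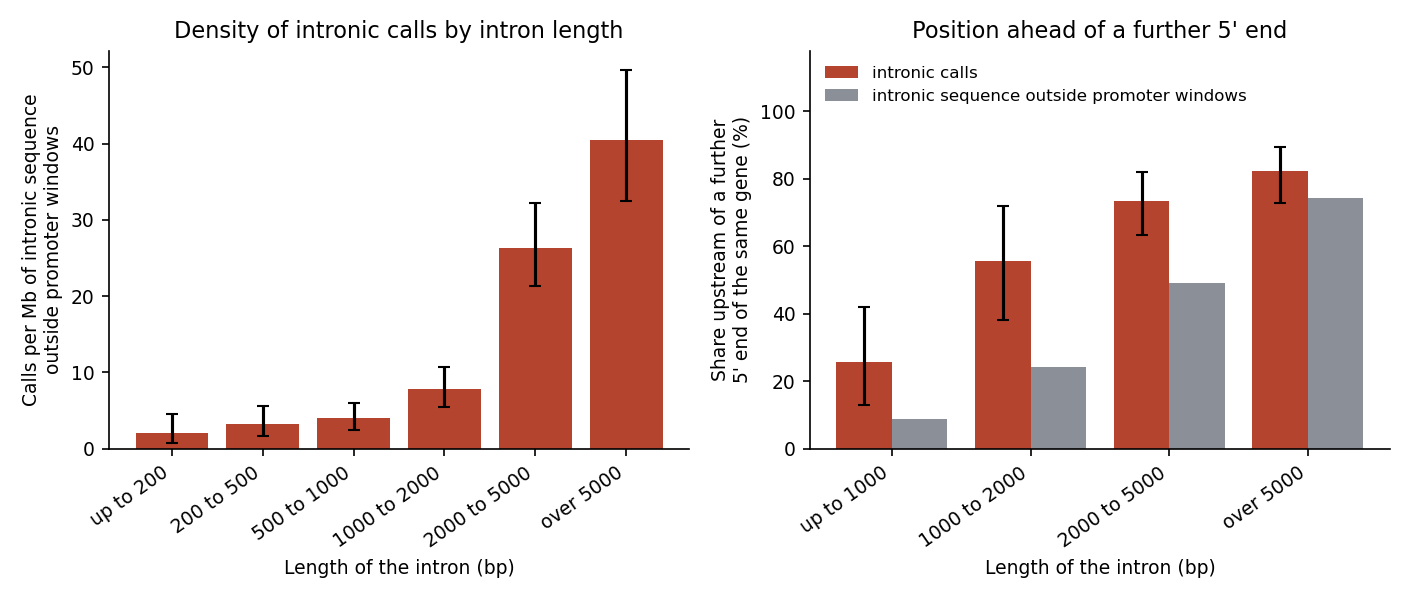
Left, autosomal intronic calls per Mb of intronic sequence outside promoter windows, by intron length (bars with Poisson 95% intervals), which climb from 2.08 to 40.4. Right, share of calls (red, exact 95% intervals) and of that sequence (grey) that lie upstream of a further annotated 5' end of the same gene, by intron length: the red bar is taller in every class, and its interval includes the grey value over 5000 bp.

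First introns and stretches ahead of internal starts held more of the calls than of the sequence. The first intron of an annotated transcript contained 152 of the 259 (58.7%, interval 52.4 to 64.7) and 28.2% of the sequence, or 24.0 calls per Mb in first introns and 6.66 in later ones. Since first introns of internal transcripts count, only 92 of the 259 were in the gap nearest to the start of the gene, and 105 were in the fourth or a later one. First introns were also longer, with a median base in an intron of 1498 bp against 786 bp in later ones.

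A further 5' end of the host lay downstream of 173 of the 259 summits (66.8%, interval 60.7 to 72.5), as it did for 25.02% of the sequence. Within introns of 2000 to 5000 bp the shares were 73.4% (69 of 94, interval 63.3 to 82.0) and 49.2%. In introns over 5000 bp they were 82.2% (74 of 90, interval 72.7 to 89.5) and 74.4%, a gap within the interval. In introns of 1000 to 2000 bp they were 55.6% (20 of 36, interval 38.1 to 72.1) and 24.4%. The distance to that next 5' end had a median of 1855 bp over the calls and 2508 bp over the sequence. Because promoter windows had been removed, none stood within 500 bp of it; 31 stood at 500 to 1000 bp (31.1 per Mb), 58 at 1000 to 2000 bp (44.2 per Mb), 53 at 2000 to 5000 bp (27.5 per Mb) and 31 beyond that (22.8 per Mb). Where the host had no further 5' end downstream, the density was 5.13 per Mb (Poisson interval 4.10 to 6.33). Examples of calls 500 to 1000 bp ahead of a further 5' end are those of unc-108 (512 bp), mvk-1 (515 bp) and the synaptic vesicle gene rab-3 (578 bp).

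The median distance to the nearest start of any coding gene was close to that of the sequence. The nearest 5' end of a protein-coding gene was a median of 1489 bp away, beside 1478 bp over the sequence. At 1000 to 2000 bp lay 36.3% of the calls (interval 30.4 to 42.5) and 28.4% of the sequence. Beyond 5000 bp the shares were 4.63% (interval 2.42 to 7.95) and 8.20%. At 200 to 500, 500 to 1000 and 2000 to 5000 bp the intervals included the share of the sequence. Calls were spread along introns as well: 139 (53.7%, interval 47.4 to 59.9) were closer to the 3' splice site, an interval that includes an even split.

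Density differed among autosomes. Chromosome III had 79 of the 259, or 17.3 per Mb of the sequence (Poisson 95% interval 13.7 to 21.5), and chromosome V had 31, or 6.31 per Mb (4.29 to 8.95). The values were 11.2 on I, 11.5 on II and 12.1 on IV, whose intervals overlap each other and the 11.6 over all autosomes. Calls on chromosome III also had the highest median signal of the 5 autosomes, 74.3, and that on II had the lowest, 66.1. On X, the 57 intronic calls gave 12.9 per Mb (9.75 to 16.7), which overlaps the autosomal interval of 10.2 to 13.1. The middle 50% of the autosomes held 144 of the 259 (55.6%, interval 49.3 to 61.7) and 41.9% of the sequence. These differences were not tested.

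Host genes, and long genes in general, had a larger share with a ROW-1 call at an own promoter than all genes. Of the 199 hosts, 39 (19.6%, interval 14.3 to 25.8) had a call at or above 50 in an own promoter window, beside 7.33% of all 15656 genes. Windows of internal 5' ends count as own ones, as in pqn-41, and the number of windows per gene was not compared. Among the 1004 genes with at least 5 kb of intronic sequence outside promoter windows, which included hosts, the share was 14.1% (interval 12.1 to 16.4), and the intervals overlap. The hosts had a median of 5761 bp of such sequence and all genes 608.5 bp. Of the genes with at least 5 kb, 11.1% were hosts, and the part of gene length in the share of hosts was not tested.

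By gene list, synaptic and signalling genes held the most calls for their sequence. The 14 lists were compiled from gene names and covered 52 of the 259 calls (20.1%, interval 15.4 to 25.5). The share of the intronic sequence held by all lists together was not computed, so that total is not read as an excess. Synaptic and neuronal genes had 3.86% of the calls and 0.887% of the sequence. For signalling genes these shares were 5.41% and 1.23%. Synaptic and neuronal genes were hosts in 8 of 36 (22.2%, interval 10.1 to 39.2) with 49.5 calls per Mb, where all autosomal genes had 11.4 per Mb and 1.27% hosts. Their strongest calls were in rab-3, for the GTPase of synaptic vesicles (pooled 133, with 83.7 in replicate 1 and 42.0 in replicate 2), in pkc-1, for a protein kinase C (128, with 65.3 and 62.4), and in ida-1, for a dense-core vesicle protein (107, with 44.0 and 64.5). Replicate 1 was higher in rab-3 and pkc-1 and lower in ida-1. Genes of signalling pathways were hosts in 8 of 57 (14.04%, interval 6.26 to 25.8) with 49.9 calls per Mb. Besides daf-5 and daf-14 they included the ERK gene mpk-1 (pooled 142, with 92.0 in replicate 1 and 59.6 in replicate 2). Of the 14 calls in signalling genes, 4 lay in daf-5 and 3 in lit-1, so the density counts clustered calls of the same gene separately.

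Several regulatory lists had small numbers. Transcription factors outside the homeobox and nuclear receptor families were hosts in 6 of 129 (4.65%, interval 1.73 to 9.85), led after mef-2 by the sex-determination gene tra-1 (120) and the TFEB-like gene hlh-30 (82.9). Heterochronic genes, which time larval stages, gave 2 of 14, lin-42 (126) and sea-2 (100.3). Axon guidance and adhesion genes gave 6 of 73 (8.22%, interval 3.08 to 17.04), led by zig-1 (85.2), unc-119 (68.1) and zig-11 (67.2). Homeobox genes gave 2 of 71, the neuronal regulators unc-42 (66.5) and zag-1 (51.0). Nuclear hormone receptors gave 3 of 247, nhr-19 (105), nhr-46 (90.2) and nhr-10 (74.3), and ion channels 3 of 170, nca-2 (65.0), lgc-31 (57.6) and lgc-46 (51.5). For homeobox genes, nuclear receptors and ion channels the intervals include the 1.27% of all genes.

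The remaining lists had 1 host or none, and only that of chemosensory receptors had an interval below the share of all genes. The listed chromatin regulators, which do not include zfp-1 or let-526, gave 1 of 80 (set-18, 67.6), RNA processing regulators 1 of 58, collagens 1 of 108 (col-72, 117) and chemosensory receptors 1 of 1231 (srt-52, 112). The RNA processing host was unc-73 (62.4), whose call also lay in an intron of F55C7.2. Muscle structural genes gave 0 of 38 (interval up to 9.25%) and cytosolic ribosomal proteins 0 of 47 (interval up to 7.55%), the latter with a median of only 88 bp of intronic sequence outside promoter windows. The share for chemosensory receptors, 0.0812% (interval up to 0.452%), lay below the 1.27% of all genes, and their density was 1.25 calls per Mb. Lists differ in how much long intron they hold, with a median of 4142 bp per gene for synaptic genes and 494 bp for chemosensory receptors, and the part of length in these shares was not tested. The row-1 gene itself, with 617 bp of such sequence, held no call of the set, and unc-119, which the strain's genotype names, held 1.

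**Figure D4:**
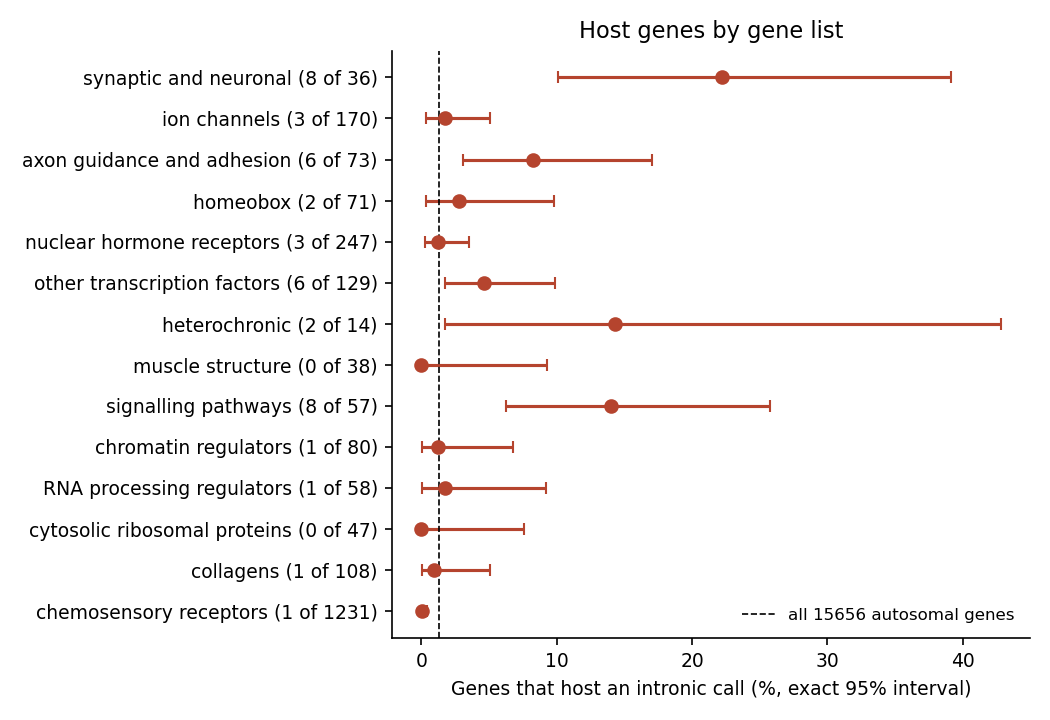
Percent of autosomal genes of each list that host an intronic call (points) with exact 95% intervals, and the counts beside each list name; the dashed line is the 1.27% of all 15656 genes. Synaptic genes stand furthest right at 22.2%, followed by heterochronic genes, which rest on 2 of 14, and signalling genes at 14.04%.

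At the summits the sequence was richer in G and C than in flanks nearby. These flanks were set by distance alone and could reach into exons or promoter windows. Within 50 bp of the summit the GC content was 46.5% ± 8.08 (SD over 259 calls), beside 37.1% in flanks 250 to 300 bp away on both sides, and it was above the flank in 205 calls. All autosomal intronic sequence outside promoter windows had 31.9%, and the promoter calls had 47.5%. Soft-masked bases, which RefSeq writes in lower case, made up 21.8% of the summit windows and 55.5% of the autosomal intronic sequence outside promoter windows. The reason for masking a base is not given, so these shares do not count repeats.

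The hexamer GAGAGA and the element AGACGCAG, shown in capitals in the printed sequences, recurred at the summits. Both were picked because they led the ranking of 6-base and 8-base runs by their excess at these summits over the flanks (for 8 bases, next to the longer GA repeat), so their counts here are a description. GAGAGA, on either strand, stood within 50 bp of 98 of 259 summits (37.8%, interval 31.9 to 44.0) and in 26 of the flanks (10.0%). AGACGCAG stood at 31 summits (11.97%, interval 8.28 to 16.6) and in 2 of the flanks. Either was present at 107 summits (41.3%) and both at 22. Windows of 101 bp placed anywhere in the intronic sequence held GAGAGA in 3.93% and AGACGCAG in 0.616%, and windows in autosomal promoters in 6.07% and 0.764%. Overlapping hexamers of a longer GA run were counted once per window.

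Other classes of ROW-1 calls had the same sequences at other rates. GAGAGA stood at 312 of 1424 promoter calls (21.9%, interval 19.8 to 24.2), at 170 of 380 intergenic calls (44.7%, interval 39.7 to 49.9) and at 9 of 57 intronic calls on X (15.8%, interval 7.48 to 27.9). AGACGCAG stood at 8.29%, 17.4% and 5.26% of the 3 classes. By point values, the autosomal intronic calls thus lay between promoter and intergenic calls for both sequences. For AGACGCAG this order was not resolved: their interval (8.28 to 16.6) included the promoter share and overlapped the intergenic interval (13.7 to 21.6). Both sequences had been picked for their excess at the autosomal intronic summits, which favours higher shares at these calls. Their interval for the hexamer overlapped that of intergenic calls and did not reach those of promoter calls and of intronic calls on X, and none of these differences was tested. The gap to promoter calls was also present within classes of GC content: at 40 to 50% GC the hexamer stood at 40.4% of 136 intronic and 23.3% of 640 promoter calls, and at 50 to 60% GC at 47.5% of 61 and 24.6% of 495. Sequence windows of the introns in these GC classes held it in 6.85% and 9.49%.

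**Figure D5:**
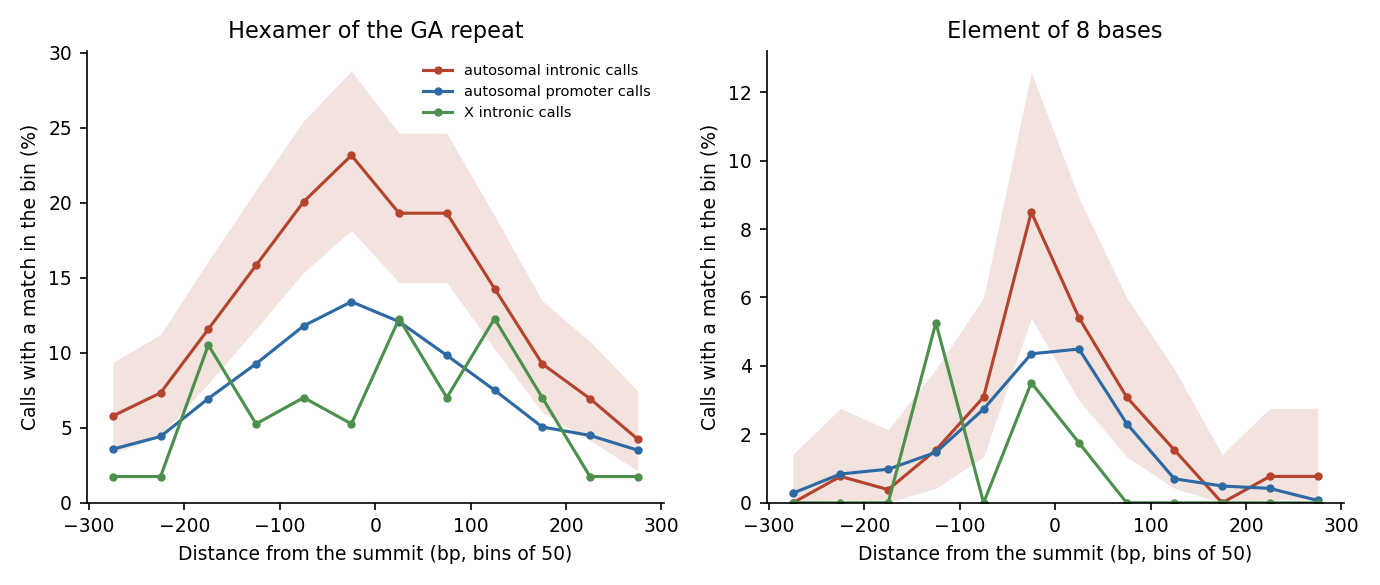
Percent of calls with a match to the GA hexamer (left) and the 8-base element (right) in bins of 50 bp by distance from the summit; red shows the 259 autosomal intronic calls with exact 95% intervals as shading, blue the 1424 promoter calls and green the 57 intronic calls on X. The red curves peak in the bin just before the summit, at 23.2% and 8.49%, the hexamer curve is nearly level over the bins within 100 bp, both are lower beyond 200 bp, and the green curve rests on few calls.

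The strongest calls held these sequences most often. In the top 86 by signal (84.2 to 445), GAGAGA stood at 51.2% (interval 40.1 to 62.1) and AGACGCAG at 24.4% (15.8 to 34.9). In the middle 86 the shares were 34.9% and 4.65%, and in the lowest 87 (50.01 to 62.4) they were 27.6% (18.5 to 38.2) and 6.90% (2.57 to 14.4). The mean GC content was 48.9%, 46.3% and 44.3% in the same order. First introns had GAGAGA at 41.4% of 152 calls and later introns at 32.7% of 107, and AGACGCAG at 11.8% and 12.1%.

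The sequences lay mostly on the strand opposite to the host gene. Of the 92 summits with GAGAGA on 1 strand only, 63 had it on the strand opposite to the host, so that the gene's own strand read TCTCTC, and 29 on the same strand (31.5%, interval 22.2 to 42.0). The printed sequences with the hexamer, those of pqn-41, daf-5 and larp-1, all belong to the same-strand minority. Of the 31 with AGACGCAG, 25 had it opposite to the host and 6 on the same strand (19.4%, interval 7.45 to 37.5), as in Y111B2A.12, mdt-26, zfp-1, daf-5 and larp-1. Over all matches in autosomal intronic sequence outside promoter windows, 43.9% of 12423 hexamers and 45.3% of 1507 elements were on the same strand as the gene. At promoter calls in windows of genes of a single strand, the same-strand share was 34.6% of 162 for the hexamer (interval 27.3 to 42.4) and 41.2% of 80 for the element (interval 30.4 to 52.8). The opposite orientation was thus more common at the intronic summits than over introns at large, outside the counting interval in both cases, and the hexamer showed a similar share at promoter calls.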

How the data were processed

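Anti-GFP ChIP-seq of 2 biological replicates of 1 group gave, on ce11, a call list for each replicate, a pooled list and an optimal list, all in narrowPeak format as the authors deposited them. The lists on ce10 were not used. The signal of each call and its −log10 q-value are the authors' deposited values, used only to rank, filter and describe calls. Not given in the sources used here are the aligner, the caller with its version, and the signal's scale. Calls were not counted from reads, so depth and its precision are unknown.

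Summits were placed on gene models of Ensembl release 115 and on RefSeq's WBcel235 sequence, the same assembly as ce11, and positions count from 1. The host was the protein-coding gene whose intron (a gap between merged exons) held the summit, and the shorter gap where 2 did. Comparisons with sequence used all autosomal intronic positions outside promoter windows. For replicate signals the overlapping call (at least 1 bp) with the nearest summit was used, and for ranks the strongest overlapping call. Motif counts merged both strands.

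With 1 group there was no test, and shares carry exact Clopper-Pearson 95% intervals. The members, the gene lists and the sequences shown were chosen with earlier results of these data known. Genes named were hosts of the 25 strongest calls, hosts with at least 3 regions, up to 3 per list, 3 on each side of the threshold, and row-1 and unc-119; F54F2.13, F55C7.2 and the examples of internal 5' ends were named after their values were seen. The classification was tested on simulated data. Alternatives changed the promoter window, the 5' ends counted, the threshold, the unit, the replicate and the sequence window. Python 3.11.15, numpy 2.4.6, pandas 2.3.3, scipy 1.17.1 and matplotlib 3.10.9 were used.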

Additional observations from a re-analysis of the deposited data

How the results depend on the processing

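With calls of 1 replicate alone (the 2158 strongest autosomal calls of that replicate), the set held 275 to 292 calls, which overlapped 189 of the 259 without replicate 1 and 218 without replicate 2. The share among the strongest of both replicates was then 58.2 to 64.4%, that overlapping an optimal peak 37.7 to 44.7%, that in first introns 53.4 to 54.9% and that upstream of a further 5' end 56.5 to 62.2%. The median intron length was 2686 to 3135 bp, the median distance to a coding 5' end 1530 to 1631 bp, the GC content 43.2 to 45.5%, and the shares with GAGAGA and AGACGCAG 28.8 to 36% and 9.25 to 11.3%. At a signal of at least 100, 64 calls were left, 100% of them among the strongest of both replicates and 100% overlapping an optimal peak, as the construction of that list requires. These had 67.2% in first introns, 37.5% on chromosome III, a median intron of 3974 bp, a median distance of 1295 bp, 50.1% GC, 54.7% with GAGAGA and 25% with AGACGCAG. A promoter window of 1000 bp upstream to 500 bp downstream gave a median intron of 3938 bp and a distance of 1801 bp, and one of 250 to 100 bp gave 3178 bp and 1312 bp. With 5' ends of protein-coding genes only, 51.3% lay in first introns, 58.9% upstream of a further 5' end, and the median intron was 3135 bp. Windows of 25 and 100 bp on each side of the summit held GAGAGA at 21.2% and 55.6% and AGACGCAG at 7.34% and 18.5%. Of the values under alternatives, 76 stayed within set bounds and the others moved. The bounds were the counting interval of the main value, 1.5 times a main count or, for medians and means, the spread between the replicates. For the median intron length that bound was narrower than the gap between the single-replicate values of 2686 and 3135 bp. The median intron length moved in 6 settings and stayed in 1. The median distance to a coding 5' end moved in 4 and stayed in 3. The share with GAGAGA moved in 4 and stayed in 5. The cause of the moves was not tested. The sequence windows of 25 and 100 bp were planned, but the motifs counted in them, and the other settings for motifs, orientation, chromosome III, GC, lists and further 5' ends, were chosen after seeing the data. No paired analysis was possible because the series holds 1 group.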
